A study of Mus musculus with 20 samples.

Results

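Testes of mice carrying a human leukaemia, and given no drug, were compared with testes of normal control mice. The comparison used 8 of the 20 sequenced testis samples, chosen by their labels: 4 of a patient-derived xenograft model of B-cell acute lymphoblastic leukaemia (B-ALL; the group is called ALL) and 4 normal controls (NC). All mice were NSG males (NOD scid gamma), 6 weeks old when the study began to house them. NSG mice lack mature T, B and natural killer cells and keep myeloid cells, so they accept human cells, and every result below comes from that host. Engrafted mice received 400000 xenograft-derived leukaemia cells through the tail vein. The series text speaks of all 5 groups as PDX mice (patient-derived xenograft), while the labels call NC normal and name no leukaemia for it. Control groups of the study received saline in place of vincristine; the labels do not say whether NC, ALL or both did, when the testes were taken, or whether each sample came from a separate mouse. The other 12 samples came from mice given vincristine at 0.5 mg/kg weekly for 3 weeks from day 69, in 3 groups of 4: VCR, labelled with vincristine only, and engrafted mice split by the leukaemia load of their blood into Low-VCR and High-VCR.

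The testis makes sperm in tubules in which Sertoli cells nurse germ cells from spermatogonia through meiosis to spermatids, while Leydig cells between the tubules make testosterone. A barrier of junctions between Sertoli cells shields the later germ cells from blood. Lymphoblastic leukaemia can settle in the testis, where relapse is a known clinical problem, and leukaemia elsewhere in the body can reach the organ through cytokines and hormones. Setting ALL beside NC asks how the testis transcriptome differed where leukaemia was present without vincristine.

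Total counts per library were 9425158 to 14976476 in NC and 10305606 to 11761011 in ALL, so 3 counts corresponded to 0.2 to 0.318 CPM (counts-per-million, on a common library scale), a floor that covers counting error only. Markers of the labelled tissue were abundant: genes of elongating and condensing spermatids summed to 25100 to 30400 CPM in NC and 29700 to 32800 in ALL, and Sertoli genes to 2070 to 2350 and 1910 to 2000. The first principal component held 20.3% of the variance, with NC between -33.5 and -5.2 and ALL between 13.4 and 25.3. Replicates varied more in NC (biological coefficient of variation 13.6%) than in ALL (9.21%). Mitochondrially encoded genes took 2.23% ± 0.314 of counts in NC (SD, n = 4) and 1.95% ± 0.136 in ALL, a difference of -0.284 percentage points that did not pass an exact two-sided permutation test (p = 0.2, where 0.0286 is the smallest possible). The NC libraries carry the numbers 1 to 4 and the ALL libraries numbers from 28 upwards, so engraftment and library number cannot be told apart.

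In the comparison of ALL with NC, few genes passed the adjusted threshold, and most of those changed less than 2-fold. Of 15004 genes tested with edgeR's quasi-likelihood test, 28 passed a Benjamini-Hochberg adjusted p of 0.05 (0.187%): 20 rose in ALL (0.133%) and 8 fell (0.0533%). The rises had a median of 0.51 on the log2 scale and reached 1.27, and the falls had a median of -0.58 and reached -0.94. Of the genes that rose, 5 did so at least 2-fold, and 0 of the genes that fell. In all 28 genes the 4 ALL values lay outside the 4 NC values, as they did in 9.21% of all genes tested (4.33% higher and 4.88% lower). Without adjustment 2228 genes (14.8%) had a p under 0.05, 1119 higher and 1109 lower. An adjusted p under 0.1 was found for 154 genes. The number of calls rested on single libraries. It was 3, 45, 3 and 107 without NC 1, 2, 3 or 4, and 2, 0, 16 and 6 without ALL 1, 2, 3 or 4. Each of the 28 genes lost its call in at least 1 of these 8 fits, where its adjusted p rose to at most 0.148. DESeq2 called 463 genes and limma voom 26; scaling by library size alone gave 19 rises and 27 falls. In bulk tissue, a change in the number of cells of a type and a change in RNA per cell cannot be told apart.

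**Figure D1:**
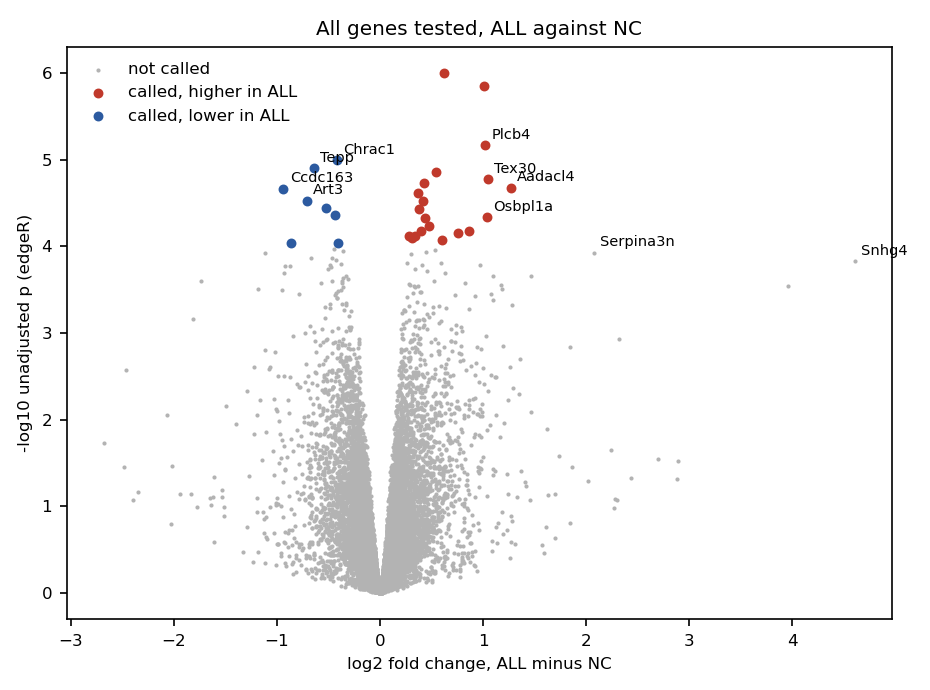
Each point is 1 of 15004 genes, with the log2 fold change of ALL over NC on the x axis and -log10 of the unadjusted edgeR p on the y axis (n = 4 per group). Red points are the 20 genes that rose and blue points the 8 that fell; Snhg4 and Serpina3n, farther to the right, did not pass.

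Genes known from testis or sperm were among those that changed. Tssk2, a serine kinase of spermatids, had 421, 483, 418 and 464 CPM in NC 1 to 4 and 642, 585, 590 and 578 CPM in ALL 1 to 4. Every ALL library lay above every NC library, a 1.34-fold rise (log2 0.42 ± 0.06 SE, adjusted p 0.0325). Atp1a4, the sodium pump subunit of sperm, had 1020, 1110, 1070 and 1000 CPM in NC and 1280, 1310, 1260 and 1260 CPM in ALL. It was the most abundant of the called genes and had the smallest rise, 1.22-fold (0.28 ± 0.05, adjusted p 0.048). Tepp, named for its expression in testis, prostate and placenta, went the other way, from between 104 and 122 CPM in NC to 77.9, 67.6, 80.3 and 61.2 CPM in ALL. That was a 1.56-fold fall (-0.64 ± 0.09, adjusted p 0.0325), with the ALL libraries well below the lowest NC library. Art3, a testis-expressed member of the ADP-ribosyltransferase family, fell 1.64-fold (-0.71 ± 0.11, adjusted p 0.0343), from between 82.4 and 96 CPM in NC to between 45.7 and 65.7 CPM in ALL. Tex30, a gene named for testis expression, rose 2.06-fold (1.04 ± 0.15, adjusted p 0.0325), from between 7.36 and 11.9 CPM to between 18.3 and 24.7 CPM.

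Promoter sequence is shown for Tssk2 and Tepp, the germ cell genes that changed in opposite directions, as the 250 bases before the annotated start (RefSeq, build GRCm38.p6, an older build than that of the counts). Of the 28 called genes, 19 had an entry. Capitals mark GTTGCC, a part of the X-box bound by RFX factors, searched on both strands.
Tssk2 (chr16:17898387-17898636, plus strand): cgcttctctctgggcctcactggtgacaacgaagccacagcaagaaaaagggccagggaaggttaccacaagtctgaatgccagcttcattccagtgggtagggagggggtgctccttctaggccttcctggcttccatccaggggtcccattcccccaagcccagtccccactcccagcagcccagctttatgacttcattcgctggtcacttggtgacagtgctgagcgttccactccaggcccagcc
Tepp (chr8:95311348-95311597, plus strand): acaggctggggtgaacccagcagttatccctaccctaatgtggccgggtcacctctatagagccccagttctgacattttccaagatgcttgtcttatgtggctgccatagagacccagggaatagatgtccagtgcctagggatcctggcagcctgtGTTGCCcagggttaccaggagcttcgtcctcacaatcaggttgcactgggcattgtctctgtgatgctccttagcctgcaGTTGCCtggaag
The Tepp window held the motif at 92 and 12 bases before the start, and the Tssk2 window held none. GTTGCC was in 5 of the 27 windows of called genes (18.5%) and in 10.4% of the 32851 windows of all genes. All windows counted were of this length, and some genes have several. The cAMP response element TGACGTCA was in 0 of 27 and in 1.55% of all, and the CCAAT box, written CCAAT, in 7 of 27 (25.9%) and 33.8%. Neither of the last 2 motifs was found in either printed window.

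Some of the other rises are described together here by their known roles, a grouping made after the calls and not tested. Osbpl1a, which encodes an oxysterol-binding protein of late endosomes, had 24.4, 25.3, 15.3 and 27.7 CPM in NC and 47.4, 48.6, 43.6 and 50.6 CPM in ALL. The lowest ALL library was well above the highest NC library, a 2.05-fold rise (1.03 ± 0.15, adjusted p 0.0394). Plcb4, a phospholipase C that splits membrane phosphoinositides, had 10.5, 9.93, 8.54 and 13.8 CPM in NC and 22, 21.2, 21 and 23.2 CPM in ALL, and rose 2.03-fold (1.02 ± 0.13, adjusted p 0.0325). Ddhd1, a phospholipase A1 acting on phosphatidic acid, rose 1.39-fold (0.48 ± 0.08, adjusted p 0.0464). Nudt4, which removes phosphate from inositol pyrophosphates, rose 1.30-fold (0.38 ± 0.06, adjusted p 0.0372), from between 320 and 372 CPM to between 446 and 469 CPM. Aadacl4, of the arylacetamide deacetylase family, had the largest rise, 2.41-fold (1.27 ± 0.18, adjusted p 0.0325). Its values were 4.81, 5.81, 3.8 and 5.71 CPM in NC and 13.6, 14.3, 8.71 and 12 CPM in ALL, so ALL 3 was the lowest of its group and still above NC.

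Further rises were those of genes with different or unknown roles. The unannotated gene ENSMUSG00000121570 rose 1.53-fold, from between 32 and 35.4 CPM in NC to between 51 and 54.7 CPM in ALL (0.62 ± 0.07, adjusted p 0.0106). The groups were far apart relative to their spread. It kept its call in 7 of the 8 fits that left out a library, and its adjusted p reached 0.0728 in the fit that lost it. The other called genes described here kept theirs in 1 to 3. Dda1, a subunit of ubiquitin ligases built on DDB1, rose 1.82-fold (0.86 ± 0.14, adjusted p 0.0474). Tnrc6b, which silences messages bound by microRNAs, rose 1.29-fold (0.37 ± 0.05, adjusted p 0.0328), from between 77.2 and 81.8 CPM to between 100 and 107 CPM. Zfp652, a zinc finger gene, rose 1.52-fold (0.60 ± 0.10, adjusted p 0.0483).

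The remaining rises follow. Kif1a, a motor that carries vesicles along microtubules, and Iqsec1, an activator of ARF GTPases, rose by 0.40 and 0.44 on the log2 scale, with NC values of 41.5 to 48.5 CPM in both and ALL values of 55.9 to 65 CPM. Efemp2, which encodes fibulin-4 of elastic fibres, rose 1.69-fold from a low level of 4.9 to 5.9 CPM. Oplah, the 5-oxoprolinase of the glutathione cycle, rose 1.27-fold, from between 137 and 161 CPM to between 182 and 190 CPM. Tm7sf3, a membrane protein gene, rose 1.46-fold, Fundc2b 1.24-fold and the gene model Gm49661, with a short transcript (339 nt), 1.34-fold. Adjusted p of these 7 genes lay between 0.0325 and 0.048.

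Among the falls, Chrac1 and Ccdc163 had the smallest adjusted p beside Tepp. Chrac1, a histone-fold protein of a chromatin remodelling complex, had 162, 159, 157 and 162 CPM in NC and 125, 114, 128 and 114 CPM in ALL. Its NC values varied little, and it fell 1.33-fold (-0.42 ± 0.06, adjusted p 0.0325). Ccdc163, a coiled-coil gene, had the largest fall, 1.91-fold (-0.94 ± 0.14, adjusted p 0.0325), from between 22.6 and 29.9 CPM to between 11 and 17.5 CPM. Tmem41b, a lipid scramblase of the endoplasmic reticulum needed for autophagy, fell 1.81-fold (-0.86 ± 0.15, adjusted p 0.0485). Slc5a12, a sodium-coupled carrier of lactate, fell 1.35-fold (-0.44 ± 0.07, adjusted p 0.0394), from between 190 and 232 CPM to between 152 and 171 CPM. Ftl1, the ferritin light chain that stores iron, had 89.8, 100, 85.7 and 84.9 CPM in NC and 66.6, 67.3, 72.7 and 65.4 CPM in ALL, a 1.33-fold fall (-0.41 ± 0.07, adjusted p 0.0485). Its partner Fth1, the heavy chain, did not pass (-0.08 ± 0.06, adjusted p 0.593). The gene model 1110004F10Rik fell 1.44-fold (adjusted p 0.0372). Ftl1, the tubulins and the ribosomal protein genes have close copies in the genome, and how the authors' counting divided shared reads is uncertain.

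**Figure D2:**
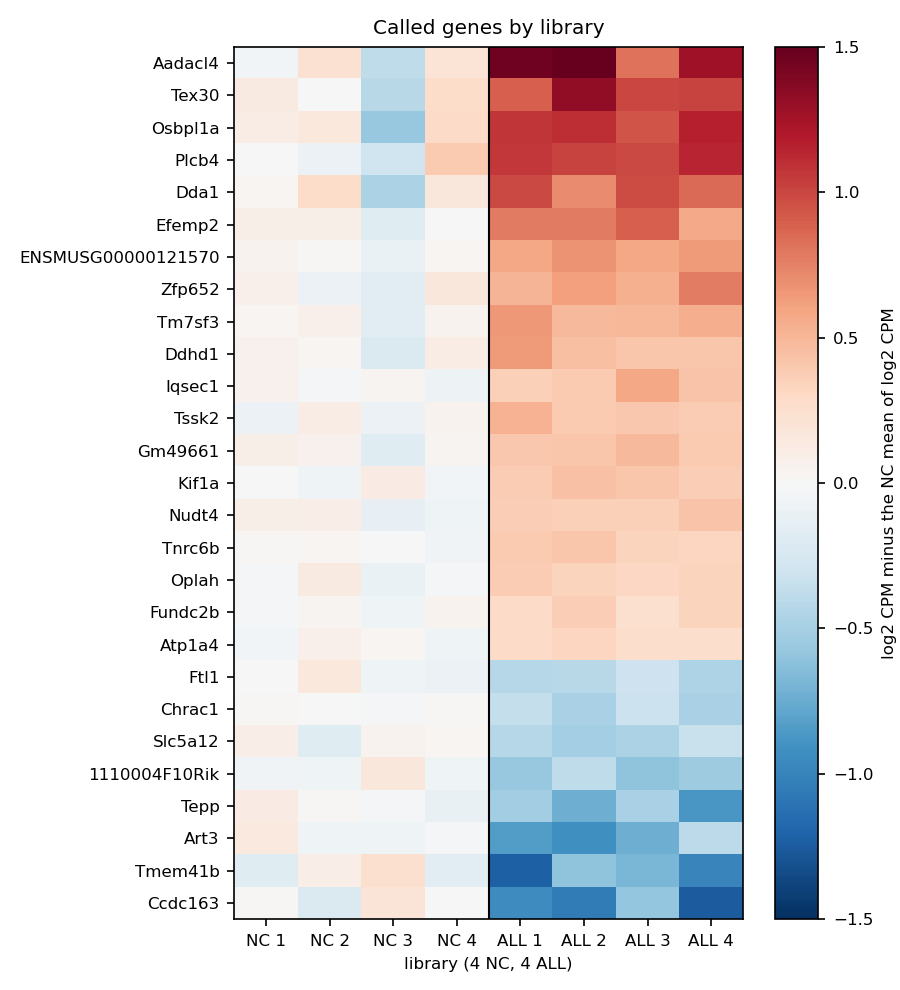
Rows are 27 of the 28 called genes, ordered by fold change, and columns the 8 libraries; colour gives log2 CPM minus the NC mean of log2 CPM (red above, blue below). In every row the 4 ALL libraries lie on 1 side of the 4 NC libraries, while NC 3 is light blue in many of the genes that rose.

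Tssk4, another spermatid kinase, and the coiled-coil gene Ccdc159 are named in the series title. Tssk4 had 106, 92.5, 86.3 and 93.3 CPM in NC and 81.1, 77.3, 70.2 and 79.3 CPM in ALL, without overlap. It did not pass in edgeR (-0.30 ± 0.07, adjusted p 0.122), and the exact two-sided permutation test gave the smallest p it can, 0.0286, or 0.0572 adjusted over both genes. DESeq2 called it (adjusted p 0.0178). Ccdc159 had 45.2, 38.4, 41.9 and 37.7 CPM in NC and 42.9, 15.5, 23.6 and 26.8 CPM in ALL. ALL 1 lay within the NC range and the other 3 below it, and the gene did not pass (-0.59 ± 0.27, adjusted p 0.369; exact permutation p 0.114). Of 7 genes that encode these kinases and their substrate, Tssk2 rose and no other passed; the median was 0.02, against -0.0046 for all genes tested.

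Lists of genes for cell types and pathways were described by counts and medians. Over all genes tested, 7.46% of genes had an unadjusted p under 0.05 with the higher value in ALL and 7.39% with the lower. Of 24 round spermatid genes 1 rose (Tssk2) and 0 fell, with a median of -0.0022; the next smallest p was that of Cst13, a cystatin of the testis, at 0.31 ± 0.08 (adjusted p 0.131). None of 25 genes of elongating and condensing spermatids passed, but 20 had values above 0 (median 0.10), 8 of them with an unadjusted p under 0.05, against 1 below. Tnp1, a transition protein that replaces histones, had 1240, 1040, 712 and 1490 CPM in NC and 2240, 2250, 2110 and 1910 CPM in ALL (0.92 ± 0.21, adjusted p 0.131). Prm1, the protamine that packs sperm DNA, had 1820, 1530, 1210 and 1650 CPM in NC and 2310, 2170, 2210 and 2050 CPM in ALL (0.49 ± 0.11, adjusted p 0.106). Both were lowest in NC 3, and both are short transcripts (437 and 469 nt). Over 74 genes with transcripts of up to 500 nt, the median log2 CPM relative to the NC mean was -0.27 in NC 3, 0.23 in NC 4 and 0.12 to 0.31 in ALL. The part of transcript length in these values was not tested.

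Meiotic genes leaned below 0 without passing. Among 28 genes of leptotene and zygotene cells, the first stages of meiosis, 20 were below 0 (median -0.07) and 8 of those had an unadjusted p under 0.05, against 1 above. Sycp1, which forms the transverse filaments of the synaptonemal complex, ranged from 87 to 115 CPM in NC and from 74.1 to 81.1 CPM in ALL (-0.42 ± 0.08, adjusted p 0.0663). The groups did not overlap. 4930447C04Rik, also known as Six6os1, a central element protein of that complex, was at -0.58 ± 0.14 (adjusted p 0.109). In 21 pachytene and diplotene genes the median was -0.04, and Adam3 and Ybx2 had the smallest p (0.13 ± 0.05 and -0.17 ± 0.06, adjusted p 0.203 and 0.252). Of 22 genes of the piRNA pathway, which silences transposons in germ cells, 16 were below 0, 5 of them with an unadjusted p under 0.05. Asz1, a scaffold of germ cell mitochondria, was at -0.41 ± 0.08 (adjusted p 0.0632), and Gpat2 at -0.17 ± 0.06 (adjusted p 0.187).

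The lists for spermatogonia held no called gene. Of 11 genes of undifferentiated spermatogonia 6 were above 0 and 5 below (median 0.03); the transcription factor genes Lhx1 and Foxo1 were at 0.96 ± 0.45 and 0.25 ± 0.17 (adjusted p 0.362 and 0.528). In 13 genes of differentiating spermatogonia the median was -0.07, with the receptor gene Kit at 0.37 ± 0.14 and Sycp3, also a meiotic gene, at -0.18 ± 0.10 (adjusted p 0.243 and 0.44). Of 23 spindle, checkpoint and cell cycle genes 16 were below 0 (median -0.05). Mki67, a marker of dividing cells, had 77.6, 72.4, 91 and 85.6 CPM in NC and 66.2, 64.5, 68.3 and 66.7 CPM in ALL (-0.30 ± 0.07, adjusted p 0.121), and Ccnb2 was at -0.12 ± 0.06 (adjusted p 0.381). The 18 p53 targets tested had a median of 0.0046, with Bax at -0.31 ± 0.16 and Gtse1 at -0.20 ± 0.11 (adjusted p 0.402 and 0.407).

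The lists for supporting cells also held no called gene. Of 24 Sertoli cell genes 20 were below 0 (median -0.17), 8 of them with an unadjusted p under 0.05, against 1 above. Amhr2, the receptor for anti-Müllerian hormone, had 347, 383, 365 and 378 CPM in NC and 314, 321, 329 and 313 CPM in ALL (-0.21 ± 0.05, adjusted p 0.106). Dmrt1, a regulator of male fate in Sertoli and germ cells, was at -0.31 ± 0.07 (adjusted p 0.111). The summed level of the list was lower in every ALL library than in any NC library. The 16 junction genes of the blood-testis barrier had a median of 0.02, with Ocln, a tight junction protein, at 0.42 ± 0.22 (adjusted p 0.411). Peritubular and smooth muscle cells (14 genes, median -0.07) had Synpo2 at -0.66 ± 0.18 and Cald1 at 0.90 ± 0.26 (adjusted p 0.139 and 0.155). Endothelial cells (14 genes, 0.11) had Vwf, the clotting factor carrier, at 0.36 ± 0.09 and Tie1 at -0.39 ± 0.21 (adjusted p 0.111 and 0.428). The 23 extracellular matrix genes had a median of 0.12, with Timp3 at 0.48 ± 0.15 and Col6a3 at 0.50 ± 0.17 (adjusted p 0.18 and 0.22).

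Leydig cell and sterol genes had values below 0 in part. Of 15 Leydig cell and steroidogenesis genes 10 were below 0 (median -0.13), 4 with an unadjusted p under 0.05 and 0 above. Hsd17b3, which makes testosterone from androstenedione, had 10.8, 14.2, 11.7 and 13.4 CPM in NC and 6.71, 9.94, 6.98 and 9.09 CPM in ALL (-0.62 ± 0.15, adjusted p 0.114). Cyp17a1, which supplies the androgen precursors, was at -0.41 ± 0.11 (adjusted p 0.151), also without overlap. Of 23 cholesterol synthesis genes 13 were below 0 (median -0.10), 6 of them with an unadjusted p under 0.05 and 0 above. Pmvk, a kinase of the mevalonate pathway, had 14.6, 18.1, 12.7 and 10.8 CPM in NC and 8.34, 4.84, 6.9 and 5.67 CPM in ALL (-1.12 ± 0.20, adjusted p 0.052). Tm7sf2, a sterol reductase, had 14.4, 12.1, 13.1 and 13.4 CPM in NC and 7.28, 7.62, 9.4 and 9.09 CPM in ALL (-0.67 ± 0.12, adjusted p 0.0543). Both missed the threshold narrowly, with groups that did not overlap. Among 20 oxysterol-binding proteins and targets of the liver X receptor Osbpl1a rose and no other passed (median 0.03); its relative Osbp was at 0.17 ± 0.05 (adjusted p 0.155).

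The immune gene lists held no called gene, and their medians lay on both sides of 0. Of 23 interferon-stimulated genes 19 were below 0 (median -0.18). Isg15, a ubiquitin-like modifier, had 3.42, 4.22, 3.04 and 4.99 CPM in NC and 2.59, 2.6, 1.29 and 1.47 CPM in ALL (-0.99 ± 0.27, adjusted p 0.131), and Ifi27 was at -0.43 ± 0.10 (adjusted p 0.106). Inflammatory and acute-phase genes were above 0 in 9 of 13 (median 0.24). Serpina3n, an acute-phase inhibitor of proteases, had 0.428, 1.31, 1.27 and 1.25 CPM in NC and 4.6, 5.38, 6.21 and 2.25 CPM in ALL (2.08 ± 0.36, adjusted p 0.052). Lcn2, which binds siderophores that carry iron, had 28.6, 87, 38 and 83.7 CPM in NC and between 104 and 132 CPM in ALL (0.97 ± 0.37, adjusted p 0.299). Every ALL library lay above NC in both. Complement genes were above 0 in 14 of 16 (median 0.20), with the protective Cd55 at 0.25 ± 0.07 and Serping1 at 0.26 ± 0.10 (adjusted p 0.141 and 0.25). Genes of the major histocompatibility complex and antigen presentation had a median of -0.07 over 20, with H2-Ab1 at 0.35 ± 0.11 and Tap2 at -0.31 ± 0.12 (adjusted p 0.166 and 0.261).

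In the lists of blood cell markers no gene passed, while most macrophage genes tested had values above 0. Macrophage and monocyte genes were above 0 in 15 of 17 tested (median 0.17) and summed to 221 to 246 CPM in NC and 244 to 294 in ALL. Laptm5, a lysosomal protein of leukocytes, was at 0.78 ± 0.20 and Lyz2, lysozyme, at 0.46 ± 0.15 (adjusted p 0.122 and 0.193). Of 19 B lineage and leukocyte genes only 7 were expressed enough to test (median 0.30, 0 called). Their sum was 26.8 to 35.5 CPM in NC and 29.3 to 40.2 in ALL. Cd79a had 9 counts over the 4 NC libraries and 4 over the 4 ALL libraries, Ms4a1 14 and 2, the leukocyte gene Ptprc 26 and 47, and Cd72 none. These are mouse genes; reads of the human cells were not analysed here. The B lineage genes Cd37 and Cd24a were at 0.30 ± 0.13 and 0.81 ± 0.35 (adjusted p 0.307 and 0.308), and the T cell genes Cd8b1 and Cd3d at 0.58 ± 0.32 and 0.24 ± 0.14 (0.445 and 0.452; Klrb1c and Prf1 at 0 in all 8 libraries). Neutrophil genes summed to 1.87 to 2.79 CPM in NC and 1.7 to 2.25 in ALL, with none tested and S100a8 at 0. Of the 7 erythroid genes tested none passed (median -0.06), Alas2 being at -0.46 ± 0.13 and the globin Hbb-bs at 0.32 ± 0.26 (adjusted p 0.143 and 0.612). Of 8 mast cell genes only Hdc was expressed enough to test, at -0.06 ± 0.09 (adjusted p 0.807). Cst8 and Rnase10, listed for epididymis, were at 0.14 ± 0.08 and 0.10 ± 0.16, and Adipoq and Fabp4, listed for fat cells, at 0.35 ± 0.15 and -1.10 ± 0.66 (adjusted p 0.44, 0.829, 0.32 and 0.491). With CPM scaled over all 20 libraries, Cst8, Adipoq and Cd3d averaged 81.9, 19.1 and 9.48 CPM in NC. In VCR they averaged 25.3, 2.04 and 1.41 CPM, and the spermatid gene Prm1 was also lower there (399 CPM, against 1770 in NC). Which cells these counts came from was not tested. The part of other cells in the 28 calls was not tested.

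Stress and clock genes were close to 0 as lists. Medians were 0.04 for 15 glucocorticoid-induced genes, 0.10 for 12 immediate early genes, 0.07 for 15 hypoxia-induced genes, -0.01 for 21 heat shock genes, 0.06 for 17 genes of the integrated stress response, 0.02 for 19 antioxidant genes, -0.08 for 15 iron genes (Ftl1 fell) and 0.08 for 18 clock genes. Ftl1 was the single gene of these lists to pass. The metallothionein Mt2, which binds metals and is induced by glucocorticoids, had 11.8, 9.47, 6 and 16.7 CPM in NC and 23.1, 26.7, 23.6 and 20 CPM in ALL (1.08 ± 0.26, adjusted p 0.131); it is short as well (511 nt). Atf4, the transcription factor of the integrated stress response, had 49.8, 46.6, 48 and 52.5 CPM in NC and 40.2, 34, 39.4 and 39.2 CPM in ALL (-0.37 ± 0.08, adjusted p 0.0723). Its target Ddit3 was at 0.19 ± 0.10 (adjusted p 0.377). The chaperones Hspa8 and Hsp90ab1 were at -0.29 ± 0.07 and -0.22 ± 0.06 (adjusted p 0.0939 and 0.125). Gsta4 and Srxn1, of antioxidant defence, were at -0.33 ± 0.08 and 0.43 ± 0.14 (0.122 and 0.174), and the hypoxia-induced Pfkfb4 and Ankrd37 at 0.17 ± 0.07 and 0.49 ± 0.21 (0.274 and 0.313). The immediate early genes Fosl2 and Nr4a1 were at 0.53 ± 0.28 and 0.14 ± 0.10 (0.412 and 0.531), and the clock regulator Rora at 0.19 ± 0.09 (0.376).

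**Figure D3:**
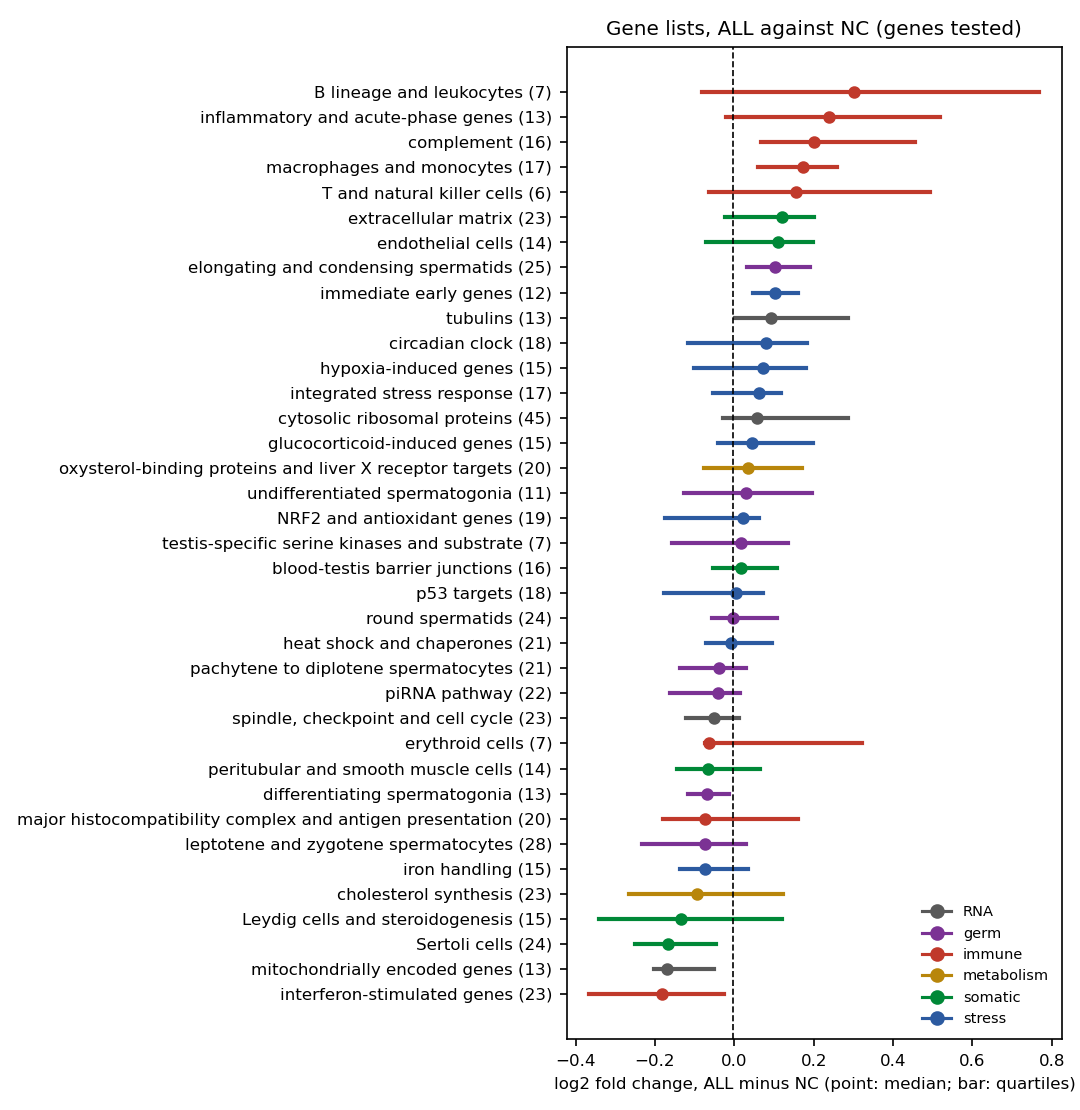
Points give the median log2 fold change of ALL over NC and bars the quartiles for each list with at least 6 genes tested (number in brackets); the dashed line is the median of all genes tested. Immune lists stand at both ends: B lineage genes highest at 0.30 and interferon-stimulated genes lowest at -0.18.

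Genes of the cytoskeleton and of translation included some with higher values. Of 13 tubulin genes 10 were above 0 (median 0.09), 5 of them with an unadjusted p under 0.05 and 0 below. Tuba1c had 154, 169, 149 and 165 CPM in NC and 198, 190, 199 and 189 CPM in ALL (0.29 ± 0.06, adjusted p 0.0607), and Tuba4a was at 0.35 ± 0.08 (adjusted p 0.0879). Cytosolic ribosomal protein genes had a median of 0.06 over 45, with 13 above and 1 below 0 at an unadjusted p under 0.05. Rpl41 and Rps27 were at 1.02 ± 0.22 and 0.69 ± 0.15 (adjusted p 0.103 and 0.106). Both were lowest in NC 3 (7.86 and 19.9 CPM), and their transcripts are of 695 and 672 nt. Of 13 mitochondrially encoded genes 11 were below 0 (median -0.17), mt-Nd1 among them at -0.21 ± 0.09, while the 204 nt mt-Atp8 was at 0.73 ± 0.24 (adjusted p 0.298 and 0.227). Snhg4, a small nucleolar RNA host gene, had 6 counts in NC, all in NC 1, and 149 in ALL, or 0.642 CPM in NC 1 and 3.16, 4.12, 2.41 and 4.11 CPM in ALL 1 to 4 (adjusted p 0.0543). Eif4a1, another such host, was at -0.20 ± 0.08 (adjusted p 0.295).

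Levels of the called genes in treated testes were set beside those in NC and ALL, with CPM scaled over all 20 libraries. Tssk2 and Atp1a4, which rose in ALL, had lower means in every treated group than in NC. Mean Tssk2 levels for NC, ALL, VCR, Low-VCR and High-VCR were 511 ± 37.6, 677 ± 34.9, 120 ± 106, 333 ± 16.8 and 257 ± 62.1 CPM (SD, n = 4). Atp1a4 averaged 1200 ± 59.4, 1440 ± 28, 236 ± 178, 724 ± 72.8 and 507 ± 136 CPM in the same order of groups. Tepp, which fell in ALL, was lower again after the drug, at 128 ± 8.16, 81.2 ± 10.3, 18.6 ± 12.9, 59.2 ± 8.5 and 33.8 ± 4.74 CPM. By contrast, Osbpl1a had means above that of ALL in all treated groups. It averaged 26.5 ± 6.19, 53.8 ± 3.25, 62.7 ± 6.35, 60.2 ± 6.03 and 67 ± 10.1 CPM in that order. Ftl1 lay between 97 and 115 CPM in NC and averaged 76.9 ± 3.71 in ALL but 382 ± 49.6 to 528 ± 160 in the treated groups. Aadacl4 was highest in ALL, at 13.8 ± 2.83 CPM, against 5.76 ± 1.07 in NC and 6.64 ± 1.17 to 8.85 ± 2.21 in the treated groups.

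**Figure D4:**
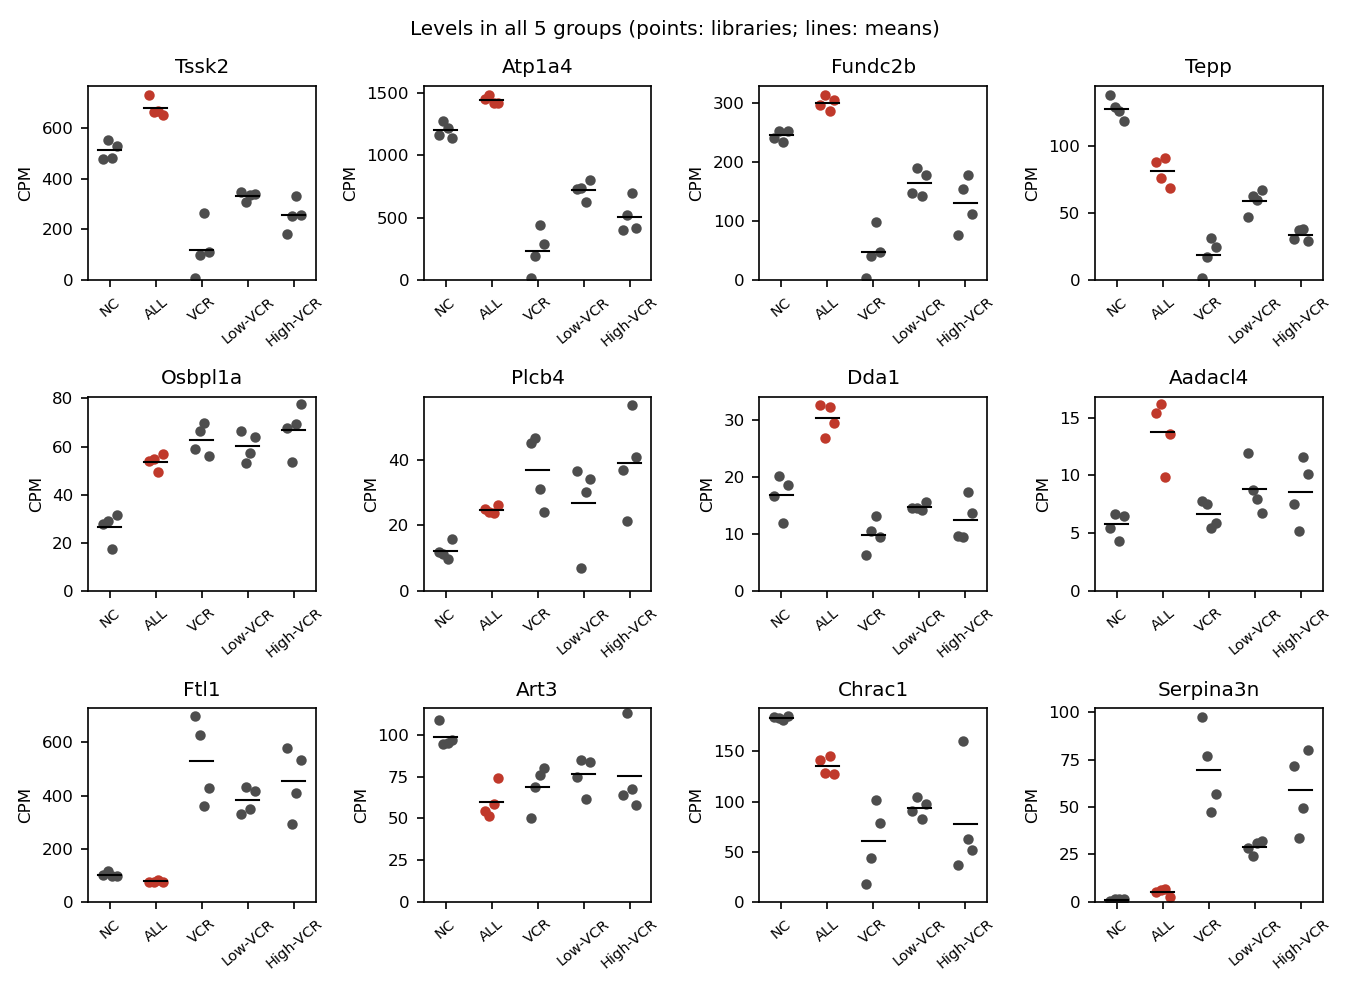
Each panel shows 1 gene, with CPM scaled over all 20 libraries on the y axis, points for libraries, lines for group means and ALL in red. Tssk2, Atp1a4 and Fundc2b are highest in ALL and lowest in VCR, whereas Osbpl1a is lowest in NC.

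Engraftment was also compared among the treated testes, which share no library with ALL or NC. The VCR libraries carry the numbers 5 to 8 and the engrafted treated libraries numbers from 26 upwards. Engraftment and library number therefore cannot be told apart in this comparison either. In an edgeR fit of the 12 treated libraries, the mean of Low-VCR and High-VCR was set against VCR. Of 16193 genes 1 passed (0.00618%), with 23.6% at an unadjusted p under 0.05. That gene, named after its value was seen, was Btbd35f15, of a family of near-identical copies, and it did not pass in ALL relative to NC (adjusted p 0.76). Of the 28 genes called without drug, 0 passed here. The direction was the same in 15 of 28 (53.6%), against 55.6% of the 14714 genes tested in both fits: in 13 of the 20 that rose and 2 of the 8 that fell. Unadjusted p under 0.05 was found for 9. ENSMUSG00000121570, at 0.62 ± 0.23, Tnrc6b (0.67 ± 0.20), Zfp652 (0.73 ± 0.28), Ddhd1 (0.72 ± 0.27), Atp1a4 (1.32 ± 0.58) and Fundc2b (1.59 ± 0.62) were higher in engrafted treated testes, the direction seen without drug. Efemp2 (-0.77 ± 0.27), Tepp (1.23 ± 0.56) and Slc5a12 (0.33 ± 0.14) had the opposite direction. Their adjusted p lay between 0.179 and 0.211. Osbpl1a was close to 0 (-0.02 ± 0.11).

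Spermatid markers had higher values in engrafted treated testes than in VCR, with none called, and VCR 1 stood apart from the other VCR libraries. All 24 round spermatid genes were above 0 in the treated comparison (median 1.37, 11 at an unadjusted p under 0.05, 0 called), as were all 25 genes of elongating and condensing spermatids (median 1.31, likewise 11 and 0). The latter summed to 450 CPM in VCR 1 and to between 4900 and 13000 CPM in the other VCR libraries, against 14500 to 25200 CPM in Low-VCR and 10400 to 19800 CPM in High-VCR. Round spermatid genes summed to 225 CPM in VCR 1 and to between 1910 and 5500 CPM in the others, against 6200 to 6970 CPM in Low-VCR and 2540 to 7220 CPM in High-VCR. Without VCR 1, a fit added after the data had been seen, the medians were 1.01 and 0.95. Atp1a4 was then at 0.95 ± 0.26, Fundc2b at 1.22 ± 0.32, Tepp at 0.86 ± 0.19 and Tnrc6b at 0.53 ± 0.18. Of the 28 genes, 18 then had the same direction (64.3%, against 54.7% of all genes), 7 had an unadjusted p under 0.05 (12% of all genes), and again 0 passed. ENSMUSG00000121570, Ddhd1 and Slc5a12 no longer had an unadjusted p under 0.05 (0.0504, 0.0601 and 0.0924). Tssk2 came under it, at 0.87 ± 0.30 (edgeR unadjusted p 0.0134, against 0.0704 with VCR 1; adjusted p 0.265). The part of spermatid content in the values of single genes was not tested. Mitochondrially encoded genes took 5.66% to 11.9% of counts in VCR and 4.69% to 9.08% in the engrafted treated libraries, and their part was not tested. With all 12 treated libraries, standard errors were wider than without drug for 26 of the 27 called genes drawn. For some genes they exceeded the change seen without drug, as for Tssk2 (0.42, against 1.24 ± 0.62 here) and Chrac1 (-0.42, against 0.47 ± 0.48). For others they were small beside it, as for Osbpl1a (1.03, against -0.02 ± 0.11) and Art3 (-0.71, against 0.11 ± 0.21). How far changes of the size seen without drug could have been detected here is not given.

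**Figure D5:**
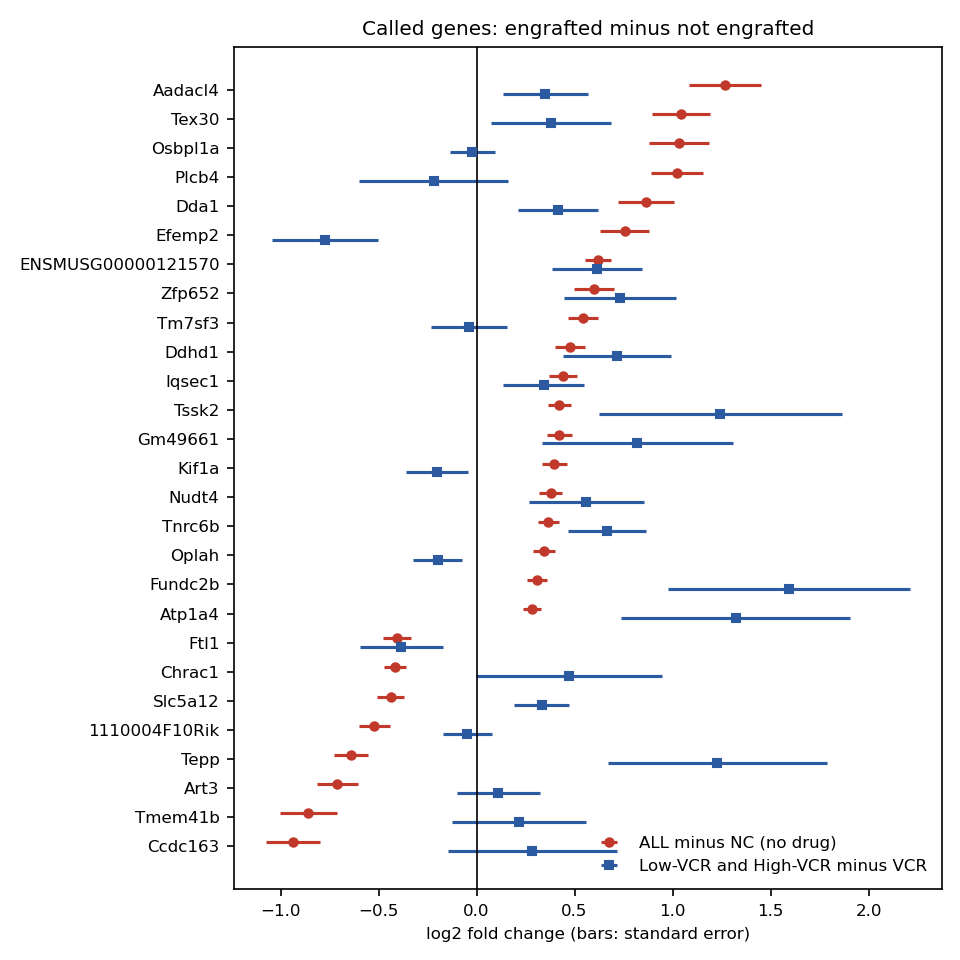
Log2 fold changes with standard errors for 27 of the 28 called genes: red circles compare ALL with NC, blue squares compare engrafted with not engrafted among vincristine-treated testes. The red values chose the genes; the blue values lie on the same side of 0 for 15 of these 27, most with wider bars.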

How the data were processed

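RNA of 20 mouse testis samples was sequenced; directional libraries were made from RNA selected with oligo-dT beads, per the labels' protocols. The authors deposited raw counts as 1 table with a row for each gene symbol. Per the submitters' processing notes, which give no roles, the build was GRCm39 (mm39) and the tools were STAR 2.7.10b, Trimmomatic 0.39, Subread 2.0.3 with featureCounts, and DESeq2 1.36.0. The annotation, the strand setting and the handling of human reads are not given in the sources used here, and overlapping genes may share reads.

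The 8 NC and ALL libraries were fitted alone in R 4.3.3 with edgeR 4.0.16 (filterByExpr by group, minimum count 10; TMM; glmQLFit, robust; 6 residual degrees of freedom). A gene was called at an adjusted p under 0.05 over 15004 of 22066 symbols. CPM values use the TMM scaling. Fold changes carry standard errors from the F statistic. Since separate mice are not stated, p-values reflect only how these samples vary, which may be technical. Alternatives used other scalings and filters, limma 3.58.1 (voom), DESeq2 1.42.0, all 20 libraries, single libraries left out, a replicate block, and ALL replicates 1 and 2 or 3 and 4. Scripts were tested on simulated data.

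The members, gene lists, tests and the rule for named genes (Tssk4, Ccdc159, every called gene, and the 2 genes with the smallest p in each of 42 lists) were chosen with earlier results of these data known. Older symbols were matched for a few list genes. Some named genes, 1 of them called, are not reported here.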

Additional observations from a re-analysis of the deposited data

Results flagged for a closer look

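Single libraries stood apart from the other 3 of their group in 15 of 214 groups of 4 values examined for the genes named above, where chance flags about 1 in 20. Among genes that changed, 1110004F10Rik was at 57.6 CPM in NC 3, above the other NC libraries. Among genes that did not pass, NC 1 was low for Serpina3n (0.428 CPM) and Dmrt1 (24.1 CPM) and high for Snhg4 (0.642 CPM), Kit (11.4 CPM) and Fabp4 (6.63 CPM). Cd8b1 was low in NC 2 (0.469 CPM) and Vwf high in NC 4 (29.3 CPM). In ALL, Laptm5 was high in ALL 1 (3.55 CPM), Atf4 low (34 CPM) and Lyz2 high (24.6 CPM) in ALL 2. In ALL 3, Ifi27 (21.9 CPM), Gpat2 (94.7 CPM) and Kit (9.74 CPM) were low and Ybx2 was high (1590 CPM).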

How the results depend on the processing

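All 28 called genes kept their sign under every alternative, but the number of calls moved. Against 28 calls (20 higher, 8 lower), library size alone gave 46 (19 and 27; 25 shared), upper-quartile scaling 19 (13 and 6), DESeq2 463 (277 and 186; 26 shared), DESeq2 without independent filtering 384 (244 and 140), no gene filter 34 and limma voom 26. Fitting all 5 groups together gave 0 calls by edgeR (0 higher, 0 lower; 748 at an unadjusted p under 0.05), with a common coefficient of variation of 29.8% against 11.6%. Without single libraries the count ran from 0 to 107 (0 to 79 higher, 0 to 28 lower); the 0, without ALL 2, had 1815 genes at an unadjusted p under 0.05. ALL 1 and 2 against NC gave 3 calls (1 and 2), and ALL 3 and 4 gave 0 (1589 unadjusted); 5 were both called and changed at least 2-fold.

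A replicate block left 9 calls (5 and 4; 7 shared) and, among treated testes, 0 (0 higher). Replicate numbers share only a number: deviations of same-numbered libraries correlated at 0.144, -0.032, 0.076 and -0.175, and 3 of 8 libraries correlated best with their own number.

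Among treated testes the 1 call became 553 in DESeq2 (442 and 111), 551 without independent filtering (440 and 111) and 812 with all 5 groups (654 and 158), and 1 to 3 without single libraries (1 to 2 higher, 0 to 2 lower). Tssk4 passed in DESeq2 (-0.29; adjusted p 0.0178, or 0.0275 without independent filtering). Without single libraries its permutation difference ran from -0.33 to -0.24 and that of Ccdc159 from -0.89 to -0.42. Without ALL 1 both reached a permutation adjusted p of 0.0286, the smallest that test can give. The adjustment runs over both genes, so Tssk4 passed there only because Ccdc159 reached that smallest p as well. Without single libraries Hdc ran from -0.1006 to 0.0096 and Rnase10 from -0.0169 to 0.1898, both turning sign without ALL 3, and Rnase10 was at -0.0892 with ALL 1 and 2. The cause of these shifts was not tested. Depth set a floor of 0.2 to 0.318 CPM.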

Other observations

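Transcript length went with the fold change at its lower end. Using the longest transcript of each symbol in GENCODE M21, 96.7% of the genes tested had a length. Of 74 genes of up to 500 nt, 61 (82.4%) had values above 0 and the median was 0.28 on the log2 scale; for 2605 genes of over 1000 and up to 2000 nt the median was -0.03, and for 852 genes over 8000 nt it was 0.04. Called genes with a length had a median of 2982.5 nt, against 3261 nt over all genes. This split was chosen after the data had been seen.

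The table lists some abundant genes at 0. Mean counts over the 8 libraries reached 100 for 9374 genes, and 20 of these were at 0 in 1 or more libraries; none was a gene named above.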
